A study of Mus musculus with 17 samples.

Results

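The 8 podocyte genes Nphs1, Podxl, Wt1, Synpo, Cd2ap, Ptpro, Magi2 and Plce1 were followed in 17 kidney libraries of 5 genotype groups. They were taken by name, as genes of the filtering cell of the glomerulus, out of 35971 genes with summed transcripts. The podocyte wraps the glomerular capillary with foot processes that are joined by the slit diaphragm. The Cre driver of the study, Ksp-Cre, is made from the promoter of cadherin 16, a cadherin of kidney tubule epithelium, and podocytes are not part of its domain. The question was whether these genes keep their level when PRCC-TFE3 is switched on in other cells of the kidney. They did not as a group. In PRCC-TFE3 KI kidneys 5 of the 8 genes fell and 2 rose against Cre(-) kidneys, and Synpo alone did not pass the test. Such calls were common, since 29.3% of all genes tested fell and 31.6% rose.

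All mice carried the lsl-PRCC-TFE3 KI allele, which holds the fusion gene at Rosa26 behind a stop cassette that Cre removes. Kidneys were taken from mice 8 months old. The 4 Cre(-) mice had no KSP-Cre. Replicates 1 and 2 carried HIF1af/f and replicates 3 and 4 carried no floxed Hif allele. The 3 KI mice carried KSP-Cre(+) alone. The 4 Hif1α KO mice carried HIF1af/f with KSP-Cre(+), the 3 Hif2α KO mice carried HIF2af/f with KSP-Cre(+), and the 3 DKO mice carried both floxed alleles with KSP-Cre(+). Cre is driven in epithelium that makes cadherin 16, and other kidney cells should keep intact Hif alleles and a silent fusion allele. RNA came from bulk kidney. In bulk RNA fewer podocytes, less RNA per podocyte and a larger share of RNA from other cells cannot be told apart. The paper reports tumors in KI kidneys, a reduction of them in Hif1α KO and DKO kidneys, and no such reduction in Hif2α KO kidneys. In the comparisons with KI, tumor content and Hif genotype therefore cannot be told apart. The part of tumor tissue in the podocyte values was not tested.

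The median library held 18635282 counts, the smallest 16504419 and the largest 24668827. Values are counts scaled to TMM-adjusted library size (CPM), at which 3 counts, the smallest amount taken as detectable, equal 0.117 to 0.206 CPM. This floor covers counting error only. Hif1a averaged 214.5 CPM in KI and 185.8 in Hif1α KO kidneys (adjusted p = 0.372), and Epas1, which encodes HIF2α, averaged 181.2 in KI and 143.9 in Hif2α KO kidneys (adjusted p = 0.0788). These sums run over whole genes, including exons outside a floxed segment, and include cells without Cre, so they do not check the deletion. Cdh16, the gene of the Cre driver, fell from 1160 ± 44.2 CPM (SD, n = 4) in Cre(-) to 635.4 ± 64.5 (n = 3) in KI kidneys. KI replicate 2 stood apart by its adipocyte markers (Adipoq, Cfd, Plin1 and Fabp4), which summed to 1801 CPM against 54.8 to 369.3 in all other libraries. The numbering of the libraries largely follows the groups, and an effect of that order cannot be told apart from genotype.

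The annotation places the genes on different chromosomes of GRCm38, except that Podxl and Ptpro share 1. Nphs1 (ENSMUSG00000006649.17, chr7:30458315-30487223, plus strand) encodes nephrin, the main adhesion protein of the slit diaphragm. Podxl (ENSMUSG00000025608.9, chr6:31519488-31563981, minus strand) encodes podocalyxin, the sialoprotein of the apical podocyte surface, which endothelium also makes. Wt1 (ENSMUSG00000016458.14, chr2:105126529-105173616, plus strand) encodes a transcription factor of podocytes. Ptpro (ENSMUSG00000030223.14, chr6:137252319-137463233, plus strand) encodes GLEPP1, a receptor tyrosine phosphatase of the foot process membrane. Magi2 (ENSMUSG00000040003.18, chr5:19227036-20704792, plus strand) encodes a scaffold that binds nephrin. Synpo (ENSMUSG00000043079.17, chr18:60593973-60660142, minus strand) encodes synaptopodin, an actin-binding protein. Cd2ap (ENSMUSG00000061665.7, chr17:42792951-42876665, minus strand) encodes an adaptor that links nephrin to actin and is made in many cell types. Plce1 (ENSMUSG00000024998.17, chr19:38481109-38785030, plus strand) encodes phospholipase C epsilon, a signaling enzyme that is also not limited to podocytes. Exons of Nphs1 share 597 bases with the antisense gene Nphs1os and 183 with the pseudogene Rps12-ps4 on the opposite strand. Rps12-ps4 averaged 22.2 counts, with at most 94.1 in a library, while Nphs1 had 81 to 165 counts in the KI libraries. Exons of Magi2 overlap those of Gm29254 on the same strand. Whether the authors' counting used strand is not given in the sources used here, so a part of the Nphs1 and Magi2 counts is uncertain.

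In Cre(-) kidneys the genes differed widely in level per transcript length. Podxl had the highest TPM at 82.9 ± 5.15 (SD, n = 4), followed by Cd2ap at 38.9 ± 4.22, Synpo at 26.5 ± 2.20 and Nphs1 at 20.7 ± 1.60. Wt1 had 12.5 ± 1.06, Ptpro 6.91 ± 0.659, Magi2 4.495 ± 0.601 and Plce1 2.34 ± 0.200 TPM. No neighbors in this order overlapped between libraries. In KI kidneys Cd2ap came first at 71.8 ± 4.35 TPM (n = 3), and Synpo (34.4 ± 4.18) and Podxl (33.7 ± 6.35) overlapped. Plce1, Wt1, Nphs1, Ptpro and Magi2, between 3.08 and 5.64 TPM, each overlapped with its neighbor.

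RefSeq promoters, from 250 bases before to 50 after the start (GRCm38.p6), were found for 5 of the 8 genes. Podxl, Wt1 and Synpo had no entry, and Magi2 had 2 starts. All 6 promoters are shown, since Nphs1, Ptpro and Magi2 fell in KI kidneys while Cd2ap and Plce1 rose. Each is printed 5′ to 3′ on the strand of its gene, and capitals mark ACGTG or GCGTG on either strand, the core of the hypoxia response element.
Nphs1: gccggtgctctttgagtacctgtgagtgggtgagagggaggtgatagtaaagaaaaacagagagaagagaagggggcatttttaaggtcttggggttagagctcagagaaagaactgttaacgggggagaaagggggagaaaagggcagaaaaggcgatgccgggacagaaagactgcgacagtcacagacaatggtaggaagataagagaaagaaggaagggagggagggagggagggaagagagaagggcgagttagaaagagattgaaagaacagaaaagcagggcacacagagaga
Ptpro: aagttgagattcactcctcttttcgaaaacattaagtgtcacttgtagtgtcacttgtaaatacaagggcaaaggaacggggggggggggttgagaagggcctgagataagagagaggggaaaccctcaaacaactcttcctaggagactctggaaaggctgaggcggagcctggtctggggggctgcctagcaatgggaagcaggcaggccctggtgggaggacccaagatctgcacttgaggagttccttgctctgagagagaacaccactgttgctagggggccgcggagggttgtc
Magi2, first start: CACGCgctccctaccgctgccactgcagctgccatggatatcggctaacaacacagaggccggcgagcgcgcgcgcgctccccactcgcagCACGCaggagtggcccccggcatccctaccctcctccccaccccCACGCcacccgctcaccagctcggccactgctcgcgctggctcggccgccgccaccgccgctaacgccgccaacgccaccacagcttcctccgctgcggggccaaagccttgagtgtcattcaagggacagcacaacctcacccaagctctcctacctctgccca
Magi2, second start: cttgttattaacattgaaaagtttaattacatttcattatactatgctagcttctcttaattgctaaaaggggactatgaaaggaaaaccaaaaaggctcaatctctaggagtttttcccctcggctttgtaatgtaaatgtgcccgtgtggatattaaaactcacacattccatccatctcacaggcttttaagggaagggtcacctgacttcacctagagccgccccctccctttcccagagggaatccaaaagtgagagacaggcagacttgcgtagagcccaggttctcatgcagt
Cd2ap: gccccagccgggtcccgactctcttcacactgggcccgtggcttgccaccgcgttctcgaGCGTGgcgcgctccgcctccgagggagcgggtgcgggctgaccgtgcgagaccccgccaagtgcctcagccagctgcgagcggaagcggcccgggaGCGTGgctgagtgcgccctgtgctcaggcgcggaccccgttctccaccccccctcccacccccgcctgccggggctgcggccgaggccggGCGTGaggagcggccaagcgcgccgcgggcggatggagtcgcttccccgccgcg
Plce1: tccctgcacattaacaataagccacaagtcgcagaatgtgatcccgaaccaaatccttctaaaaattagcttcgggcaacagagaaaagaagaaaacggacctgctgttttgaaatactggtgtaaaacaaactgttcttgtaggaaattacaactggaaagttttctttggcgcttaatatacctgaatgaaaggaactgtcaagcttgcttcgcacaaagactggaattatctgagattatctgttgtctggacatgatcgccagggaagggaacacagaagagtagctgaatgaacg
The Nphs1 promoter lies at chr7:30459808-30460107, Ptpro at chr6:137252049-137252348, Magi2 at chr5:19226796-19227095 and chr5:19907268-19907567, Cd2ap at chr17:42876375-42876674 and Plce1 at chr19:38523947-38524246. ACGTG or GCGTG occurs 3 times in the Cd2ap promoter and 3 times in that of the first Magi2 start, so in 1 gene that rose and 1 that fell, and not in the other 4. It is held by 43.8% of 32817 RefSeq promoters of this length. Neither CACGTG, an E-box of the MiT/TFE factors that contains ACGTG, nor CATGTG was found in the 6 promoters. These hexamers occur in 7.15% and 14.2% of all promoters. The promoters with matches are the richest in G and C, at 77.0% for Cd2ap and 69.3% for the first Magi2 start, against 49.7% for Nphs1, 54.7% for Ptpro, 43.0% for the second Magi2 start and 41.0% for Plce1. A match or its absence describes these letters only.

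The first comparison, KI against Cre(-), asks what expression of the fusion in tubule epithelium goes with in podocyte transcripts. Of the 8 genes, 7 passed the threshold of 0.05 on the adjusted p, 5 lower and 2 higher. Calls were common in this comparison, since 60.9% of the 17011 genes tested passed, 29.3% lower and 31.6% higher. The share of the 8 genes that passed is therefore read against a background of most genes. The median log2 fold change was -1.24 over the 8 genes and 0.03 over all genes tested.

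Nphs1 changed most. Its CPM was 55.05, 54.39, 52.1 and 52.72 in the Cre(-) mice and 9.08, 4.36 and 9.42 in the KI kidneys. All KI libraries lay far below all Cre(-) libraries. The log2 fold change was -2.82 (95% interval -3.48 to -2.15, adjusted p = 1.591e-06), a level 7.04-fold lower. Of all genes tested, 2.69% had a log2 fold change as low or lower.

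The receptor phosphatase Ptpro had 28.5, 27.25, 25.95 and 23.8 CPM in the Cre(-) and 8.28, 5.28 and 8.27 in the KI kidneys. It was 3.63-fold lower (log2 fold change -1.86, interval -2.30 to -1.42, adjusted p = 1.563e-06). The transcription factor gene Wt1 had 26.7, 21.1, 19.9 and 27.8 CPM in the Cre(-) and 7.07, 4.09 and 9.36 in the KI kidneys. It was 3.49-fold lower (-1.80, interval -2.41 to -1.20, adjusted p = 5.284e-05). Podxl, the most abundant of the genes that fell, had 377.7, 384.9, 367.5 and 418.4 CPM in the Cre(-) and 126.6, 89.45 and 125.2 in the KI kidneys. It was 3.40-fold lower (-1.77, interval -2.14 to -1.39, adjusted p = 4.959e-07). In none of these genes did the groups overlap, and KI replicate 2 was the lowest library each time.

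Magi2 fell less. It had 21.7, 14.7, 21.2 and 20.0 CPM in the Cre(-) and 12.1, 12.8 and 10.5 in the KI kidneys, with Cre(-) replicate 2 close to the KI range but above it. The log2 fold change was -0.72 (interval -1.0 to -0.43, adjusted p = 0.000241).

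The genes that rose are the adaptor and the signaling enzyme. Plce1 had 19.5, 15.4, 16.75 and 17.7 CPM in the Cre(-) and 30.5, 36.0 and 26.25 in the KI kidneys, a log2 fold change of 0.84 (interval 0.45 to 1.22, adjusted p = 0.000826). Cd2ap had 169.3, 173.6, 191.8 and 178.4 CPM in the Cre(-) and 251.3, 239.9 and 243.3 in the KI kidneys, a log2 fold change of 0.46 (interval 0.28 to 0.64, adjusted p = 0.000239). The groups did not overlap in either gene. Synpo had 107.2, 100.5, 94.6 and 102.8 CPM in the Cre(-) and 105.1, 84.0 and 103.2 in the KI kidneys. The groups overlapped, with a log2 fold change of -0.06 (interval -0.25 to 0.14, adjusted p = 0.625).

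In all, 7 of the 8 genes had groups that did not overlap, as did 56.6% of all genes tested. Only Synpo had its whole interval within 0.58 on the log2 scale, a change of less than about 1.5-fold, as did 29.8% of all genes. Scaling and the measure bear on the size of the changes, and for the smallest also on the call. Over the 28 other settings Ptpro ranged from -1.96 to -0.784, Magi2 from -0.826 to -0.364 and Cd2ap from 0.408 to 0.887. Nphs1 ranged from -3.00 to -2.22. With total counts in place of TMM factors the median of all genes moved from 0.03 to 0.37 and the share of higher genes among the calls from 51.9% to 74.1%, or to 78.3% with limma on log2(TPM + 1). Under these scalings Synpo turned to 0.29 and 0.36 and passed (adjusted p = 0.0144 and 0.00780), while Nphs1, Ptpro, Wt1, Podxl and Magi2 stayed lower and Cd2ap and Plce1 higher. Without KI replicate 2, 7 of the 8 genes still passed, and Nphs1 was at -2.53 (adjusted p = 1.077e-05). The share of all genes that passed in that fit is not given here.

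**Figure D1:**
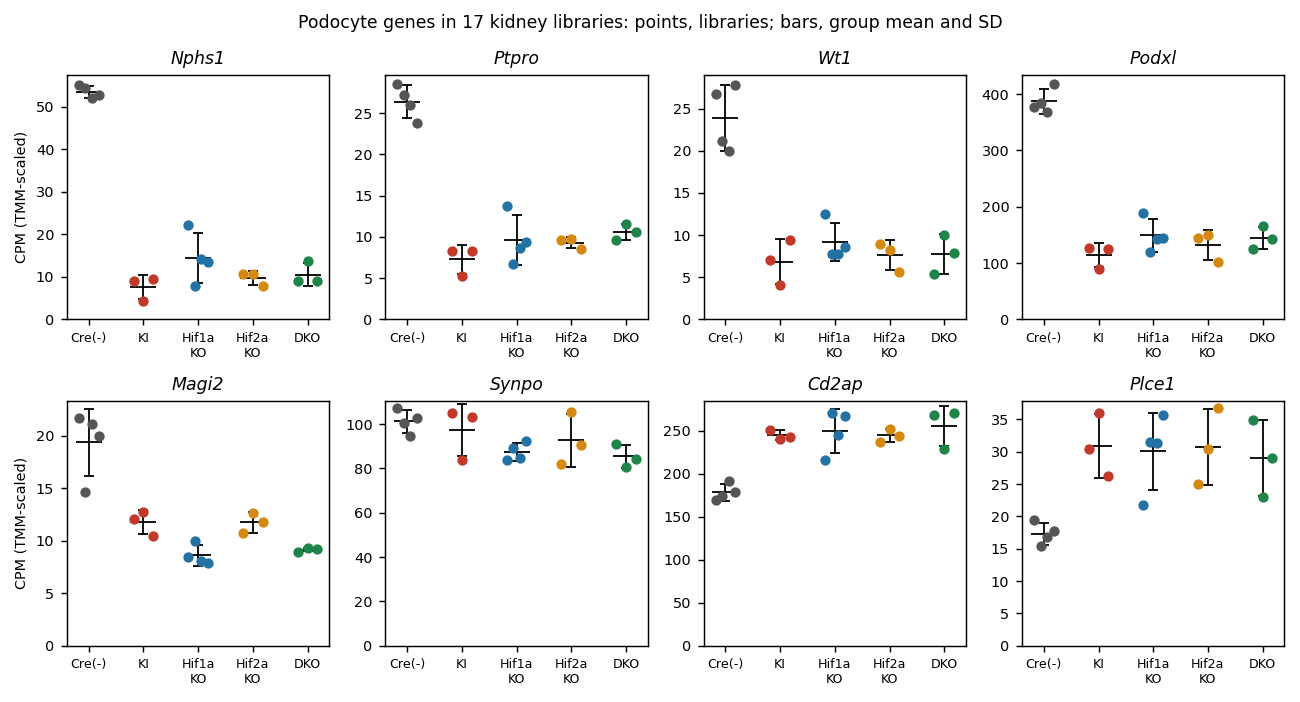
CPM on TMM-scaled library sizes (vertical axis, from 0) of the 8 podocyte genes in the 5 groups (horizontal axis). Points are libraries and bars give the group mean and SD. Nphs1, Ptpro, Wt1, Podxl and Magi2 are lower in every Cre-carrying library than in any Cre(-) library, Cd2ap and Plce1 are higher, and Synpo overlaps between Cre(-) and KI.

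The same genes were then compared in the knockouts with the same 4 Cre(-) mice, so these contrasts share their controls with the first. In Hif1α KO kidneys all 8 genes passed, 6 lower and 2 higher, against 61.9% of genes tested (30.1% lower and 31.9% higher). In Hif2α KO kidneys 7 passed, 5 lower and 2 higher, against 61.9% (29.9% lower and 32.0% higher). In DKO kidneys all 8 passed, 6 lower and 2 higher, against 58.3% (27.9% lower and 30.4% higher). Groups did not overlap in 8, 7 and 8 of the 8 genes, against 56.1%, 59.7% and 59.3% of all genes. The whole interval lay within 0.58 for Synpo alone in each, against 32.5%, 30.0% and 31.8% of all genes. Nphs1 again had the lowest fold change of the 8 in each. It was -1.89 in Hif1α KO (interval -2.46 to -1.32), -2.46 in Hif2α KO (-3.11 to -1.81) and -2.35 in DKO kidneys (-2.99 to -1.70).

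Nphs1 had 22.3, 7.89, 14.25 and 13.5 CPM in the Hif1α KO, 10.6, 10.6 and 7.90 in the Hif2α KO and 8.91, 13.75 and 8.93 in the DKO kidneys. Hif1α KO replicate 1 was the highest Cre-carrying library and still far below the Cre(-) range. Podxl had 189.4, 119.2, 143.5 and 144.8 CPM in the Hif1α KO, 145.0, 150.1 and 102.4 in the Hif2α KO and 125.6, 165.8 and 142.4 in the DKO kidneys. Its log2 fold changes against Cre(-) were -1.38, -1.55 and -1.42 (largest adjusted p = 5.229e-06).

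Wt1 had 12.5, 7.79, 7.77 and 8.59 CPM in the Hif1α KO, 8.98, 8.23 and 5.57 in the Hif2α KO and 5.36, 10.1 and 7.91 in the DKO kidneys, with log2 fold changes of -1.38, -1.65 and -1.62. Ptpro had 13.8, 6.70, 8.67 and 9.33 CPM in the Hif1α KO, 9.63, 9.76 and 8.55 in the Hif2α KO and 9.60, 11.6 and 10.6 in the DKO kidneys, with log2 fold changes of -1.46, -1.50 and -1.31. All these libraries lay below all Cre(-) libraries. With limma on TPM the Ptpro difference in DKO kidneys was -0.29 and did not pass (adjusted p = 0.0796).

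Magi2, the nephrin scaffold, had 8.42, 10.0, 8.07 and 7.92 CPM in the Hif1α KO, 10.7, 12.7 and 11.8 in the Hif2α KO and 8.96, 9.27 and 9.23 in the DKO kidneys. Its log2 fold change against Cre(-) was -1.17 in Hif1α KO, -0.72 in Hif2α KO and -1.08 in DKO kidneys. The Hif2α KO difference did not pass with total counts (-0.28, adjusted p = 0.0779) or with limma on log2(TPM + 1) (-0.17, adjusted p = 0.204).

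Cd2ap had 216.0, 271.1, 245.1 and 267.2 CPM in the Hif1α KO, 237.3, 252.1 and 244.3 in the Hif2α KO and 267.8, 228.5 and 270.8 in the DKO kidneys, with log2 fold changes of 0.49, 0.46 and 0.52. Plce1 had 21.7, 31.5, 31.3 and 35.6 CPM in the Hif1α KO, 25.0, 30.5 and 36.8 in the Hif2α KO and 34.9, 23.1 and 29.0 in the DKO kidneys, with log2 fold changes of 0.80, 0.83 and 0.74. Every one of these libraries was above every Cre(-) library in both genes. Synpo had 83.7, 89.05, 84.6 and 92.3 CPM in the Hif1α KO, 82.0, 105.4 and 90.6 in the Hif2α KO and 91.1, 80.8 and 84.5 in the DKO kidneys. It passed as lower in Hif1α KO (-0.21, adjusted p = 0.0431) and DKO kidneys (-0.24, adjusted p = 0.0346) and not in Hif2α KO kidneys (-0.13, adjusted p = 0.246). These small Synpo calls did not hold: of 28 other settings, 14 lost the Hif1α KO call and 13 the DKO call with the same sign, and 3 turned the sign in each.

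**Figure D2:**
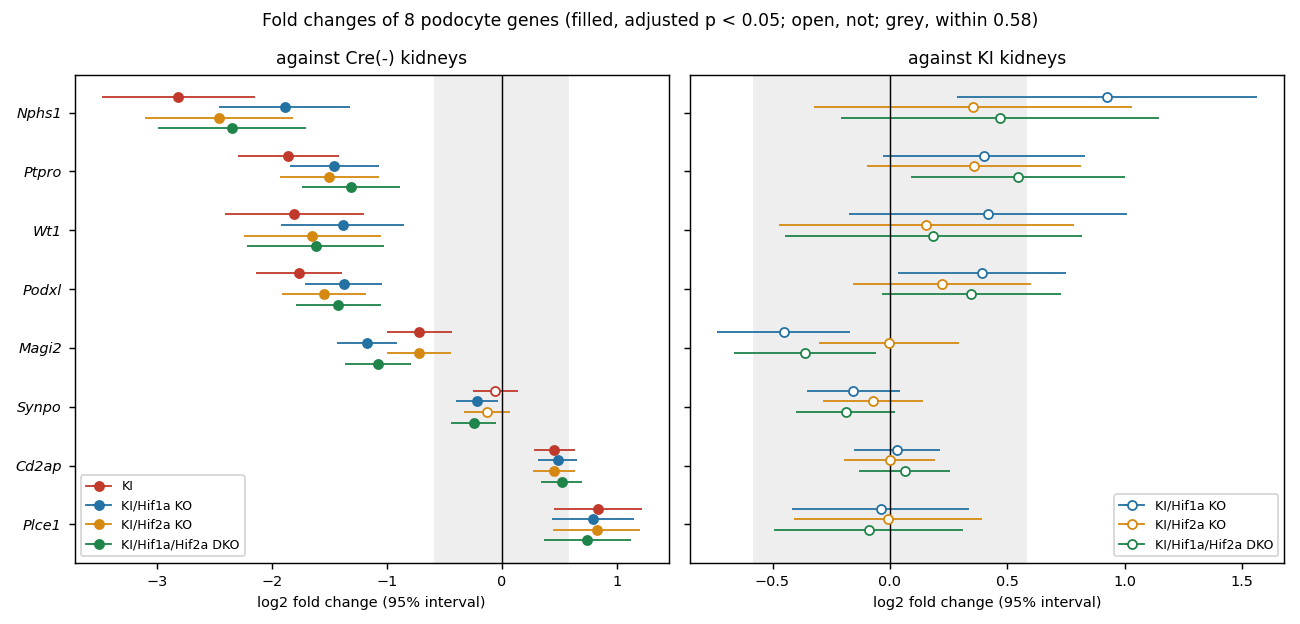
Log2 fold changes (horizontal axis) of the 8 genes (vertical axis) in Cre-carrying groups against Cre(-) kidneys (left) and in the knockouts against KI kidneys (right), with 95% intervals. Filled points passed an adjusted p of 0.05 and the grey band spans 0.58 to either side of 0. On the left only Synpo lies wholly within the band, and on the right every point is open.

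Whether losing Hif1α, Hif2α or both changed the podocyte genes in kidneys with the fusion was asked against the KI group. None of the 8 genes passed in edgeR's quasi-likelihood test in any of the 3 comparisons. Over all genes, 5.44% passed in Hif1α KO, 1.39% in Hif2α KO and 12.7% in DKO kidneys. At an unadjusted p under 0.05 there were 3 genes in Hif1α KO (Nphs1, Podxl and Magi2), 0 in Hif2α KO and 2 in DKO kidneys (Ptpro and Magi2), against 22.1%, 19.2% and 29.1% of all genes. DESeq2 called 2 genes in Hif1α KO (Nphs1 and Magi2) and 0 in each of the others, against 9.88%, 5.92% and 17.2% of all genes it tested.

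Against KI, Nphs1 was at 0.93 in Hif1α KO (interval 0.29 to 1.56, adjusted p = 0.0834), 0.36 in Hif2α KO (-0.32 to 1.03, adjusted p = 0.577) and 0.47 in DKO kidneys (-0.21 to 1.15, adjusted p = 0.354). Each of these intervals includes a 2-fold difference. The Hif1α KO value rests in part on single libraries. It was 0.64 without KI replicate 2, 0.65 without Hif1α KO replicate 1, and 1.13 with adjusted p = 0.0212 without Hif1α KO replicate 2.

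Magi2 was at -0.45 in Hif1α KO (interval -0.73 to -0.17, adjusted p = 0.0573) and -0.36 in DKO kidneys (-0.67 to -0.06, adjusted p = 0.102), with no overlap with KI in either. In DKO kidneys the value was 0.07 with limma on log2(TPM + 1). Ptpro was at 0.40, 0.36 and 0.54 in Hif1α KO, Hif2α KO and DKO kidneys (adjusted p = 0.259, 0.376 and 0.104), and its groups did not overlap with KI in the Hif2α KO and the DKO. Podxl was at 0.39, 0.22 and 0.35 (adjusted p = 0.185, 0.529 and 0.214) and Wt1 at 0.42, 0.15 and 0.19 (adjusted p = 0.410, 0.820 and 0.725). Groups did not overlap in 1 of 8 genes in Hif1α KO, 1 in Hif2α KO and 2 in DKO kidneys, against 19.3%, 20.2% and 33.7% of all genes.

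The whole interval lay within 0.58 for Plce1, Synpo and Cd2ap in each of the 3 comparisons with KI and also for Magi2 in the Hif2α KO. That is 3, 4 and 3 of the 8 genes, against 53.4%, 52.2% and 47.9% of all genes. Over the 4 groups with Cre taken jointly, 0 of the 8 genes differed (8.11% of all genes did), with the smallest adjusted p, 0.0585, for Magi2. At an unadjusted p under 0.05 there were 2, Nphs1 and Magi2, against 26.2% of all genes, and DESeq2 called 1, against 17.0%. Over all 5 groups 7 of the 8 differed, against 65.8% of all genes, with Synpo at an adjusted p of 0.112. A term for the combination of both knockouts passed for none of the 8 genes and for 0 of 17011 genes, and its lowest unadjusted p among the 8 was 0.0783, for Nphs1.

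Within groups 4 of the genes that fell lay together in some libraries. KI replicate 2 was the lowest KI library and Hif1α KO replicate 1 the highest Hif1α KO library for Nphs1, Podxl, Wt1 and Ptpro, and Hif1α KO replicate 1 was the lowest of its group for Cd2ap, Plce1 and Synpo. In the DKO, replicate 2 was the highest library for the same 4 genes and the lowest for Cd2ap, Plce1 and Synpo. Of Cd2ap, Plce1 and Synpo, only Plce1 ran opposite in KI, with replicate 2 highest (36.0 CPM). KI replicate 2 was the lowest also for Cd2ap (239.9 CPM) and Synpo (84.0 CPM). Hif1α KO replicate 1 and DKO replicate 2 also had the highest summed distal tubule and collecting duct markers of their groups (6426 and 6411 CPM) and the highest proximal tubule markers (1946 and 1626 CPM). KI replicate 2 had the lowest of both in its group (1682 and 655.2 CPM). In the Hif2α KO, replicate 1 had the highest tubule markers (5209 and 1750 CPM) and was the highest for Wt1 but not for Podxl or Ptpro. Hif2α KO replicate 2 had the lowest tubule markers (3098 and 603.1 CPM) and was the highest for Podxl and Ptpro. Magi2 did not share the order of the 4 genes. KI replicate 2 was its highest KI library (12.8 CPM) and Hif1α KO replicate 2 its highest Hif1α KO library (10.0 CPM). The part of tubule content in the podocyte values was not tested.

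The ratio of each gene to Nphs1 restates by library that the genes that fell did so unequally. Since Nphs1 fell most, a higher mean ratio in KI kidneys follows from the fold changes above. The ratio of Podxl to Nphs1 was 7.23 ± 0.480 in Cre(-) (SD, n = 4) and 15.9 ± 3.99 in KI kidneys (n = 3). For Ptpro it was 0.492 ± 0.0285 and 1.00 ± 0.182, and for Wt1 0.446 ± 0.0722 and 0.904 ± 0.112. None of these ratios overlapped between Cre(-) and KI libraries.

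**Figure D3:**
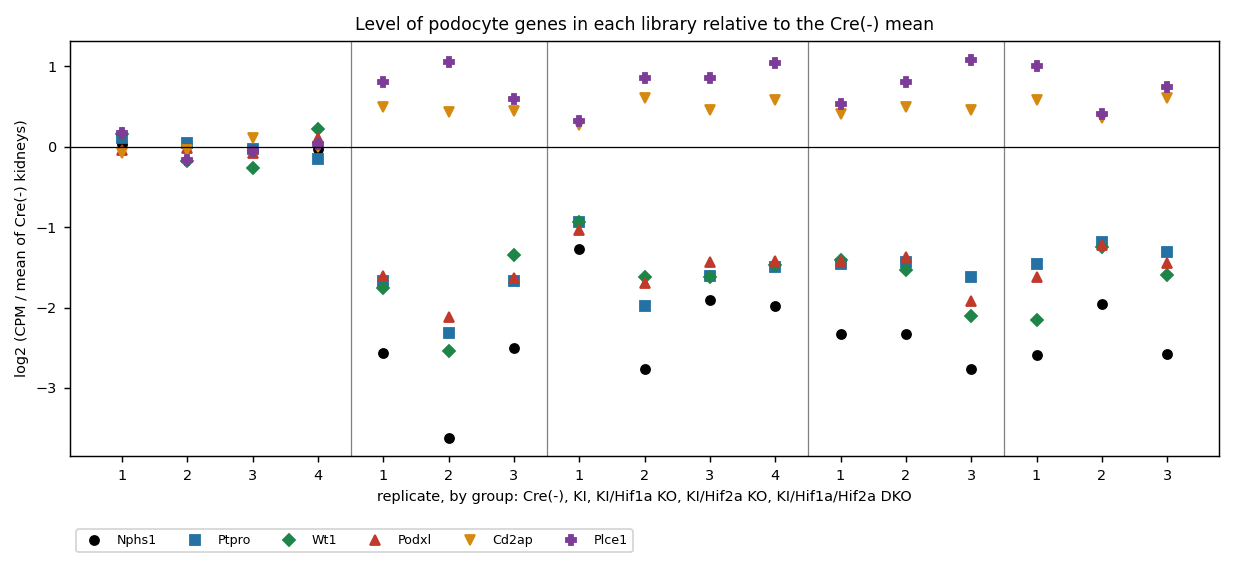
Log2 ratio of CPM to the mean of the Cre(-) kidneys (vertical axis) for 6 of the genes in each of the 17 libraries (horizontal axis), in group order. Nphs1 is the lowest of the 6 in every Cre-carrying library, Ptpro, Wt1 and Podxl lie together above it, and Cd2ap and Plce1 lie above 0.

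Among the 10 tested genes whose centered log2 CPM profile over the 17 libraries lay nearest to that of Nphs1, by root mean square difference, were Myom2, Cgref1, Ddn, Glis1, Agtr1a, Epb41l3, Slc4a4, Nudt19 and Slc17a1. The differences of the 10 ran from 0.242 to 0.311 on the log2 scale. Ddn is a podocyte gene, while Slc4a4 and Slc17a1 encode transporters of the proximal tubule. Of 17010 other genes, Wt1 ranked 161, Podxl 227 and Ptpro 237. Magi2 ranked 2826, Synpo 6021, Cd2ap 11743 and Plce1 13444. This likeness is a description, and most of it is the step between Cre(-) and Cre-carrying libraries.

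A further list of 28 podocyte genes was compared by role. In KI kidneys 15 fell, 8 rose and 5 did not pass, against 29.3% of all genes lower and 31.6% higher, with a median log2 fold change of -0.45. In the slit diaphragm, Crb2 fell by 2.19 on the log2 scale, while Kirrel, whose product Neph1 binds nephrin, rose by 1.27. The size of the Crb2 fall depended on the setting, from -2.45 to -0.675 over 28 others. Of the genes of the cytoskeleton, Rhpn1 (-2.35), Arhgap24 (-1.67) and Nes (-0.55) fell and Myo1e (1.33) and Inf2 (0.88) rose. The Nes call was lost in 7 of 28 other settings, among them those without KI replicate 2 (-0.49, adjusted p = 0.0726), KI replicate 3 (-0.40, adjusted p = 0.104) or Cre(-) replicate 4 (-0.45, adjusted p = 0.0605). Of the nuclear genes, Dach1 (-1.76), the cell cycle inhibitor Cdkn1c (-1.56), Foxd2 (-1.07) and Foxc2 (-0.74) fell, and Foxc1 (2.14) rose. Foxc2 did not pass with total counts (-0.40, adjusted p = 0.0652) or limma on log2(TPM + 1) (-0.20, adjusted p = 0.165).

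The glomerular basement membrane split by protein. The collagen IV chains Col4a3 (-1.70, 563.2 to 173.8 CPM), Col4a4 (-1.26) and Col4a5 (-0.58) fell, whereas the laminin chains Lama5 (0.93) and Lamb2 (0.42) and agrin (Agrn, 1.11) rose. Col4a5 did not pass with total counts (-0.24, adjusted p = 0.129) or limma on log2(TPM + 1) (-0.0987, adjusted p = 0.475). Collagen IV and laminin chains are also made by tubule epithelium. Of the membrane and signaling genes, Robo2 (-2.14) and Pla2r1 (-0.90) fell and Thsd7a (1.29) rose. The human products of Pla2r1 and Thsd7a are antigens of membranous nephropathy. Which cells of the mouse kidney made these transcripts was not tested. Both secreted factors fell, Bmp7 by 1.07 and Vegfa by 0.36 on the log2 scale, although the Vegfa call was lost in 8 of 28 other settings. Vegfa was at 0.0935 with limma on log2(TPM + 1), -0.22 without KI replicate 1 (adjusted p = 0.149) and -0.28 without KI replicate 2 (adjusted p = 0.116). The 5 that did not pass, Actn4, Clic5, Trpc6, Lmx1b and Tcf21, ranged from -0.25 to 0.64.

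Against KI, 3 of the 28 were higher and 1 lower in Hif1α KO, 0 and 2 in Hif2α KO, and 4 and 3 in DKO kidneys, against 5.44%, 1.39% and 12.7% of all genes. Col4a3 (0.36) and Col4a4 (0.39) were higher in Hif1α KO, and Bmp7 was higher in Hif1α KO (0.55) and DKO kidneys (0.78). Tcf21 (1.03), Foxc2 (0.68) and Arhgap24 (0.69) were higher and Vegfa (-0.46) lower in the DKO. Clic5, a foot process gene that is also made in endothelium, was lower in all 3 knockouts (-0.46, -0.45 and -0.59), and Thsd7a in Hif2α KO (-0.65) and DKO kidneys (-0.68). Most of these calls depended on the setting. In Hif2α KO kidneys the Clic5 and Thsd7a calls were lost in 25 and 24 of 28 other settings. In Hif1α KO kidneys the Bmp7 call was lost in 13, the Col4a3 and Col4a4 calls in 11 each and the Clic5 call in 5. In DKO kidneys the Vegfa call was lost in 12, the Tcf21 and Foxc2 calls in 6 each and the Thsd7a call in 3, while those of Bmp7, Arhgap24 and Clic5 held in all 28. Bmp7 in Hif1α KO was at 0.40 without KI replicate 2 (adjusted p = 0.148), and Vegfa in DKO at -0.21 without KI replicate 3 (adjusted p = 0.172).

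Other cells of the kidney were measured with marker lists. Their counts in KI kidneys stand beside 29.3% of all genes tested that passed as lower and 31.6% as higher. Of 8 glomerular endothelial genes 6 fell in KI kidneys, led by Ehd3 (-1.46) and Plat (-1.38), and Pecam1 (-0.24, adjusted p = 0.132) and Cdh5 (-0.13, adjusted p = 0.443) did not pass. Of the 6, the Emcn (-0.55) and Flt1 (-0.67) calls were lost in 8 and 7 of 28 other settings, among them those without KI replicate 1 or KI replicate 2 (largest adjusted p = 0.0648 and 0.0857), without Cre(-) replicate 4 for Emcn (0.0676) and without Cre(-) replicate 3 for Flt1 (0.0545), and Kdr (-0.81) did not pass with limma on TPM. The sum of the list was 479.7 to 720.8 CPM in Cre(-) and 352.8 to 393.5 in KI kidneys. Other endothelium of the kidney also makes genes of this list, such as Pecam1 and Cdh5. In bulk RNA its values are not those of the glomerulus alone. Of 4 mesangial genes Agtr1a (-2.96) and Itga8 (-1.68) fell, Serpine2 rose (1.35) and Pdgfrb did not pass (0.13). All 4 genes of the parietal epithelium of Bowman's capsule rose, led by Cd44 (4.08) and Cldn1 (2.34), which other epithelia also make. All 5 proximal tubule genes fell, led by Slc22a6 (-5.30) and Slc34a1 (-4.98), and all 8 of the distal tubule and collecting duct fell, led by Slc12a3 (-3.76) and Slc12a1 (-3.60). Of 4 adipocyte genes Cfd (4.55) and Adipoq (3.37) passed as higher, with groups that overlapped. Both calls rested on KI replicate 2, without which Cfd was at 1.62 (adjusted p = 0.334) and Adipoq at 0.58 (adjusted p = 0.680). Adipoq also lost its call without Cre(-) replicate 2 (adjusted p = 0.0589) or Cre(-) replicate 3 (adjusted p = 0.05645). The median log2 fold change of the 8 podocyte genes, -1.24, lay between that of the glomerular endothelial (-0.74) and the distal list (-2.27). Their part in the podocyte values was not tested.

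**Figure D4:**
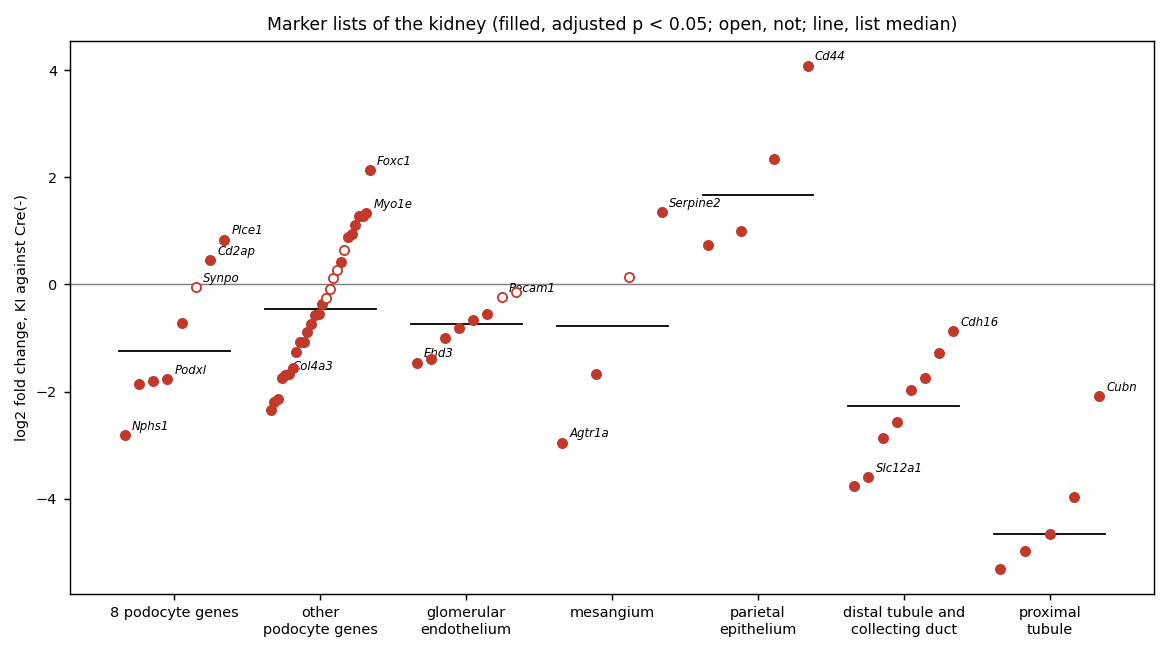
Log2 fold change of KI against Cre(-) kidneys (vertical axis) for the genes of 7 lists (horizontal axis), sorted within each list. Filled points passed an adjusted p of 0.05 and lines are list medians. Further podocyte genes spread from -2.35 for Rhpn1 to 2.14 for Foxc1, while all genes of the 2 tubule lists lie below 0.

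Estimated transcript levels were examined last. They split single-end reads between overlapping transcripts and are therefore less certain than the gene sums. 1 transcript carried 96.3% of Podxl TPM in Cre(-) and 96.1% in KI kidneys. For Cd2ap the leading transcript carried 85.1% and 91.9%. In Ptpro the longer leading transcript (ENSMUST00000167679.7, 5096 nt) had 4.27, 4.27, 5.42 and 3.83 TPM in the Cre(-) and 1.41, 0.69 and 1.70 in the KI kidneys. The shorter one (ENSMUST00000203914.1, 2667 nt) had 3.28, 1.81, 0.56 and 2.16 TPM in the Cre(-) and 2.06, 1.74 and 1.2 in the KI kidneys. The long form was lower in every KI library and the short form overlapped. The longer transcript carried 65.1% of Ptpro TPM in Cre(-) and 35.6% in KI kidneys. The summed TPM of Ptpro went from 6.91 in Cre(-) to 3.63 in KI kidneys, a smaller fold than in CPM.

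The main Magi2 transcript (ENSMUST00000197443.4, 6578 nt) had 2.09 ± 0.686 TPM in Cre(-) and 2.37 ± 0.334 in KI kidneys, with overlap, and another (ENSMUST00000101558.9, 6530 nt) had 0.929 ± 0.370 and 0.294 ± 0.344. In Plce1 both leading transcripts were higher in every KI library than in any Cre(-) library. ENSMUST00000182481.7 (8357 nt) had 1.02 ± 0.248 and 3.38 ± 1.04 TPM and ENSMUST00000169713.8 (9439 nt) had 0.946 ± 0.277 and 1.68 ± 0.0992. The main Synpo transcript (ENSMUST00000130044.1, 4970 nt) had 15.9 ± 1.23 TPM in Cre(-) and 19.0 ± 0.616 in KI kidneys. A second one (ENSMUST00000097566.9, 5060 nt) was listed at 0 in 3 of 4 Cre(-) libraries and at 2.21 in the fourth, and had 3.00, 3.74 and 2.7 TPM in the KI kidneys. No test was run on transcripts.

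**Figure D5:**
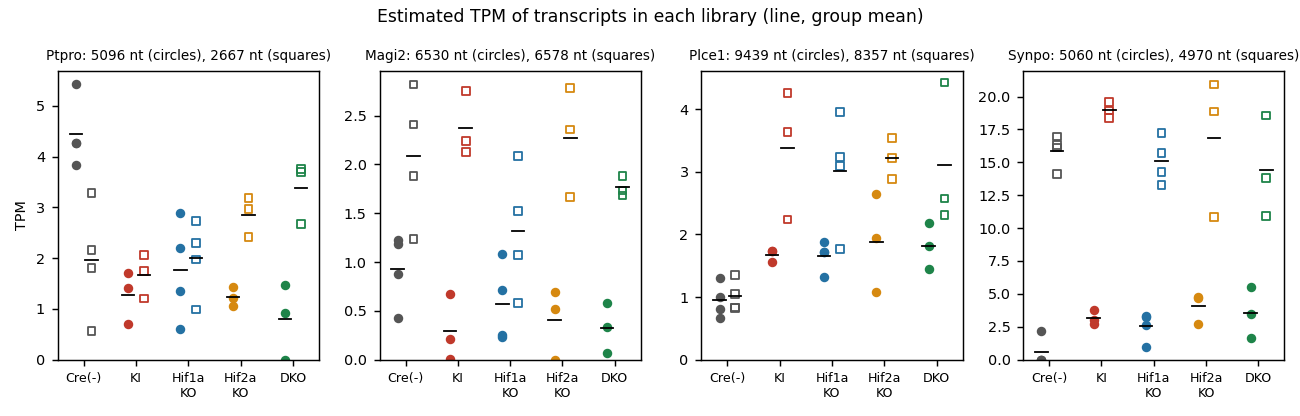
Estimated TPM (vertical axis, from 0) of pairs of transcripts of Ptpro, Magi2, Plce1 and Synpo in the 5 groups (horizontal axis). Points are libraries and lines are group means. The 5096 nt transcript of Ptpro is lower in every Cre-carrying library than in any Cre(-) library, whereas the one of 2667 nt overlaps.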

How the data were processed

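Kidney RNA of 17 mice was sequenced from stranded mRNA libraries. The submitters' processing notes name Trim Galore 0.6.6, cutadapt 2.5 and STAR 2.7.9a. The methods name RSEM, a human assembly for alignment and either that or GRCm38 for annotation. The files list mouse transcripts, so GRCm38 was used here. The authors deposited expected counts and TPM per transcript. Of 119353 transcripts, 116770 (97.8%) matched GENCODE M21, holding 99.04% to 99.24% of counts. Values were summed over 35971 genes and counts rounded.

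Groups were compared with edgeR 4.0.16 (R 4.3.3), quasi-likelihood test, TMM factors, filterByExpr with a minimum count of 10, in one fit of all libraries. Adjustment was by Benjamini-Hochberg over 17011 genes, with a threshold of 0.05, and 18960 genes were left out. Simulated data for KI against Cre(-) held 200 changed genes among 17011, far fewer than the 60.9% called in the real comparison. On them 4.5% of edgeR calls were false, and 59% of 2-fold and 90% of 4-fold changes were called. With DESeq2 12.7% of calls were false. These rates need not hold where most genes change. Alternatives were DESeq2 1.42.0, its size factors, upper-quartile factors, total counts, no filter, only the groups compared, a replicate block, limma 3.58.1 on log2(TPM + 1) and log2(TPM + 0.1), either pair of Cre(-) mice, and each library left out. Named genes were the 8 genes, the further podocyte list, the 2 genes with the largest change each way in each marker list, the 10 nearest to Nphs1, and Hif1a, Epas1 and Cdh16. Pecam1, Cdh5, Emcn, Flt1, Kdr, Pdgfrb, Plin1 and Fabp4 were named in addition, as list members. Some listed genes are not reported here. Members and lists were chosen with earlier results of these data known. Replicates are separate mice, as far as the labels give them.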

Additional observations from a re-analysis of the deposited data

How the results depend on the processing

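The count of the 8 genes past the threshold against Cre(-) stayed within 7 to 8 in every group and alternative tried. The genes behind the count changed in some. In DKO kidneys with limma on log2(TPM + 1), Ptpro lost its call (adjusted p = 0.0796) and Synpo passed as higher (0.30, adjusted p = 0.0221). In Hif2α KO kidneys with total counts, Magi2 lost its call (adjusted p = 0.0779) and Synpo passed as higher (0.31, adjusted p = 0.00875). Limma on TPM gave the same exchange in Hif2α KO kidneys. In the main fits 58.3% to 61.9% of all genes passed in these comparisons, and with total counts 11537 to 11983 of 17011 did. Against KI the count of the 8 genes was 0 in the main fits. For Hif1α KO it became 2 with DESeq2, where 9.88% of all genes passed. For Hif1α KO it also became 1 with only the Cre(-) mice without HIF1af/f (842 of 17254 genes passed). For DKO it became 1 with total counts (2319 of 17011 genes passed). Over the 4 groups with Cre it was 0 and became 1 with only the groups compared, limma on log2(TPM + 1), limma on log2(TPM + 0.1), DESeq2, and only the Cre(-) mice without HIF1af/f. Of all genes 8.11% passed there in the main fit and 17.0% with DESeq2. The shares with the other settings are not given here. Leaving out each library gave 0 to 2 for Hif1α KO against KI (2 without Hif1α KO replicate 2 and 1 without Cre(-) replicate 2), 0 to 1 for DKO (1 without Hif1α KO replicate 1) and 0 to 1 for the 4 groups (1 without Hif1α KO replicate 2 or Cre(-) replicate 2). The cause of these changes in the count was not tested. Shares of all genes are not given here for the fits with a library left out. The counts from those fits therefore stand without that background.

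Synpo against Cre(-) turned sign with total counts (0.29 in KI, 0.15 in Hif1α KO, 0.31 in Hif2α KO and 0.21 in DKO), limma on log2(TPM + 1) (0.36, 0.21, 0.36 and 0.30) and on log2(TPM + 0.1) (0.37, 0.21, 0.37 and 0.30). Magi2 in DKO against KI turned to 0.0729 and 0.0901 with the 2 limma fits, and Vegfa in KI against Cre(-) to 0.0935 and 0.0938. Across libraries left out, Synpo in KI ranged from -0.112 to 0.0428, turning without KI replicate 2, and Wt1 against KI ranged from -0.11 to 0.45 in Hif2α KO and from -0.0805 to 0.479 in DKO.

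Replicate numbers did not pair the mice: 31 same-numbered pairs had correlations from -0.22 to 0.25 (median -0.03), 4 of them over 0.1, and 3 libraries correlated best with their own number. With the replicate block the counts of the 8 genes were 7 in each group against Cre(-), where Synpo did not pass in Hif1α KO (adjusted p = 0.0693) and DKO (adjusted p = 0.0847), and 0 in each against KI. Of 17011 genes tested with the block, 9468 to 10220 passed against Cre(-) and 76 to 1712 against KI. Counting depth limits Crb2, Foxd2 and Trpc6, which averaged 5.48, 1.89 and 0.563 CPM in Cre(-) kidneys.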
